A study of Rattus norvegicus with 2 samples.

Results

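The 7 genes described here encode subunits of the GABA-A receptor: the alpha subunits Gabra2 (ENSRNOG00000002349), Gabra4 (ENSRNOG00000002336) and Gabra5 (ENSRNOG00000010803), the beta subunits Gabrb1 (ENSRNOG00000002327) and Gabrb2 (ENSRNOG00000003680), and the gamma subunits Gabrg1 (ENSRNOG00000002360) and Gabrg3 (ENSRNOG00000014862). They were taken by name from the 25399 genes of the deposited matrices, which also hold 12 other subunits of the family. Each of the 7 symbols matched a single gene in both matrices.

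The data are single-nucleus RNA-seq counts of unique molecular identifiers (UMIs) from the orbitofrontal cortex, a prefrontal region used in value-based choice. Male Sprague-Dawley rats aged 8 weeks received intraperitoneal methamphetamine (METH, a psychostimulant that releases dopamine) at 1 mg/kg, or saline, for 7 days, and tissue of 4 animals per group was collected. A single library was made per group, so no test between groups was possible, no p-value is given, and the animals of a group cannot be told apart. The METH library held 5543 barcodes with a median of 6401 UMIs and the saline library 6969 with a median of 4992. Median UMIs were higher in METH in all 7 compared classes, from 9406 against 6391 in excitatory neurons to 1151 against 1033 in endothelial nuclei.

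GABA-A receptors are chloride channels opened by GABA, the main inhibitory transmitter of the cortex, and are rings built from alpha, beta and usually gamma or delta subunits. GABA binds between alpha and beta subunits, benzodiazepines bind between alpha and gamma subunits, and the choice of alpha and gamma subunit sets whether a receptor gathers at synapses or responds to ambient GABA outside them. Glia also carry these receptors, and astrocytes take up GABA from the extracellular space.

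Sequences just upstream of the genes are shown because the 2 beta subunits share stretches of sequence there. RefSeq promoter windows of 300 bases (250 before to 50 after the annotated start, build GRCr8) were found for 6 of the 7 genes; Gabra2 had no entry. Printed below, 5′ to 3′ on the gene's own strand, are Gabrb1 at chr14:36902844-36903143 on the minus strand, Gabrb2 at chr10:27439543-27439842 on the plus strand and Gabrg1 at chr14:37750042-37750341 on the plus strand. Capitals mark the runs of at least 10 bases that the Gabrb1 and Gabrb2 windows share, and in Gabrg1 the letters ATTGG, which are CCAAT on the other strand.

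Gabrb1: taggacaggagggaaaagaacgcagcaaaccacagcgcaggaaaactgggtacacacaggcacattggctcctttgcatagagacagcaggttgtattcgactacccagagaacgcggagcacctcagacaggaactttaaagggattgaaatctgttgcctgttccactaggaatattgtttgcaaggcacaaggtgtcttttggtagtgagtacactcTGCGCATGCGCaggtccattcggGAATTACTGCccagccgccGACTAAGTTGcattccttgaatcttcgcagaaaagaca

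Gabrb2: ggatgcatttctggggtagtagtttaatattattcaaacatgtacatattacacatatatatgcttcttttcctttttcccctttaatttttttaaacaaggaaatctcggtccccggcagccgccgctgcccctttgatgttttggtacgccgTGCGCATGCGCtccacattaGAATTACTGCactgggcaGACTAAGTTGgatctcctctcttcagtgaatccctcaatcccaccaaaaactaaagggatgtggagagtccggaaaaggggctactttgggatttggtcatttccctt

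Gabrg1: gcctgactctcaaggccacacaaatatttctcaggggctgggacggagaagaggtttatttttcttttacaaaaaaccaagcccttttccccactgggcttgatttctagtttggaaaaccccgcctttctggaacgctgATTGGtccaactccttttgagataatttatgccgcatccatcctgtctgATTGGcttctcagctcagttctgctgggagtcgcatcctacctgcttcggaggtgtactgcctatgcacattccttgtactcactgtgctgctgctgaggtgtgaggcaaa

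Gabrb1 and Gabrb2 share 3 runs, in the same order. The first, TGCGCATGCGC, begins 30 bases before the Gabrb1 start and 96 bases before the Gabrb2 start. It was found, on either strand, in 0.598% of 33469 rat promoter windows of the same length. It contains the palindrome GCGCATGCGC, a form of the site of nuclear respiratory factor 1, which 0.852% of the windows hold. The second, GAATTACTGC, begins 7 bases before the Gabrb1 start and 76 before the Gabrb2 start and occurs in 13 windows (0.0388%). The third, GACTAAGTTG, begins at base 13 of the Gabrb1 gene, with the first base of the gene as 1, and 58 bases before the Gabrb2 start. It occurs in 5 windows (0.0149%). The runs are separated by 12 and 9 bases in Gabrb1 and by 9 and 8 bases in Gabrb2, so the block is nearly collinear while its distance to the annotated start differs.

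The windows also differ in CpG content. Gabra4, Gabra5 and Gabrg3 have 35, 42 and 37 CpG dinucleotides, against 11 in Gabrb1, 9 in Gabrb2 and 6 in Gabrg1, and the median over all windows was 7. The CCAAT box (CCAAT, either strand) occurs 2 times in Gabrg1, as capitals show, and 1 time in Gabrb1, and is present in 37.5% of all windows. TATAAA was in none of the 6 windows and in 14.2% of all. The GC box GGGCGG was found in Gabra4, Gabra5 and Gabrg3 and in 33.1% of all. These are matches of letters, not measured binding. In the RefSeq gene order, Gabrb1, Gabra4, Gabra2 and Gabrg1 lie within a few genes of each other on chromosome 14, Gabrg3 and Gabra5 lie side by side on chromosome 1, and Gabrb2 lies near Gabra6 on chromosome 10.

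Levels are given as CPM: a gene's UMIs per 1000000 UMIs of all nuclei of a cell group in a library, with its exact 95% Poisson interval in parentheses where given. A level is compared between cell groups for the same gene, not between genes, because UMI yield differs between genes. Groups were rebuilt by clustering, and their names mean nuclei like the named type. They are 14 neuronal subgroups and 5 non-neuronal classes. Subgroups that did not pass the naming rule are called by a pair of leading genes, such as Vat1l/Chst8. Of these, Sv2c/Pde11a interneurons had the Lamp5 interneuron markers at 1.00 of the highest cluster's level, against 0.16 for the next type's markers. They went without the Lamp5 name because 2 of its markers were usable and the rule asked for 3. Vip/Adarb2 interneurons had markers of the Sncg type at 0.60 and of the Vip type at 0.57 of the highest cluster's level. Neither led by the 0.2 that the rule asked for, so this group is not read as Vip interneurons alone. The order of levels was alike in both libraries: Spearman's rho over the 19 cell groups ran from 0.896 for Gabrg1 to 0.995 for Gabrg3. The groups share libraries and depth, so this is a description only.

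Among the alpha subunits, Gabra2, which is known from synapses on cell bodies and the axon initial segment, was highest in layer 2/3 intratelencephalic neurons and in astrocytes. Layer 2/3 neurons had 278 CPM (266 to 291) in METH and 336 (321 to 351) in saline. Astrocytes had 244 (217 to 274) and 341 (309 to 377). The 2 groups changed places between the libraries, so neither is the higher beyond counting error. Sncg interneurons, a cholecystokinin-related type, had 251 and 304 CPM, above astrocytes in METH and below them in saline, and Pld5/Thsd7a excitatory nuclei had 243 and 245. At the low end, layer 5/6 near-projecting neurons had 17.4 and 21.4 CPM and Pvalb interneurons, the fast-spiking basket and chandelier type, 27.5 and 37.3. The lowest Gabra2 level among neuronal groups was in the Mybpc1/Slit2 interneurons, with 2 and 4 UMIs in all. Of the 18 neighbouring pairs in the order of Gabra2 levels, 1 had separate intervals in both libraries.

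Gabra4, a subunit found with delta in receptors outside synapses, was highest in 2 interneuron groups. Sv2c/Pde11a interneurons had 543 and 546 CPM in METH and saline, and Mybpc1/Slit2 interneurons 580 (506 to 661) and 481 (403 to 568). Layer 2/3 neurons had 438 and 475 and Pvalb interneurons 412 and 439.9. The first pair changed places between the libraries. Gabra4 in the Vat1l/Chst8 excitatory group, at 133 and 145 CPM, was the lowest among excitatory subgroups, and astrocytes had 116 and 159.

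Gabra5, the subunit of many hippocampal receptors outside synapses, was highest in Vat1l/Chst8 excitatory nuclei at 83.1 (72.4 to 94.8) and 94.9 (83.3 to 108) CPM and in Sv2c/Pde11a interneurons at 75.6 and 76.8. The intervals of these neighbours overlapped. In layer 2/3 neurons Gabra5 was at 15.1 and 17.6 CPM, so the subgroup with the most Gabra2 among excitatory neurons had the least Gabra5. Astrocytes held 3 and 8 Gabra5 UMIs in all. No pair of neighbours in the Gabra5 order was separate in both libraries.

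**Figure D1:**
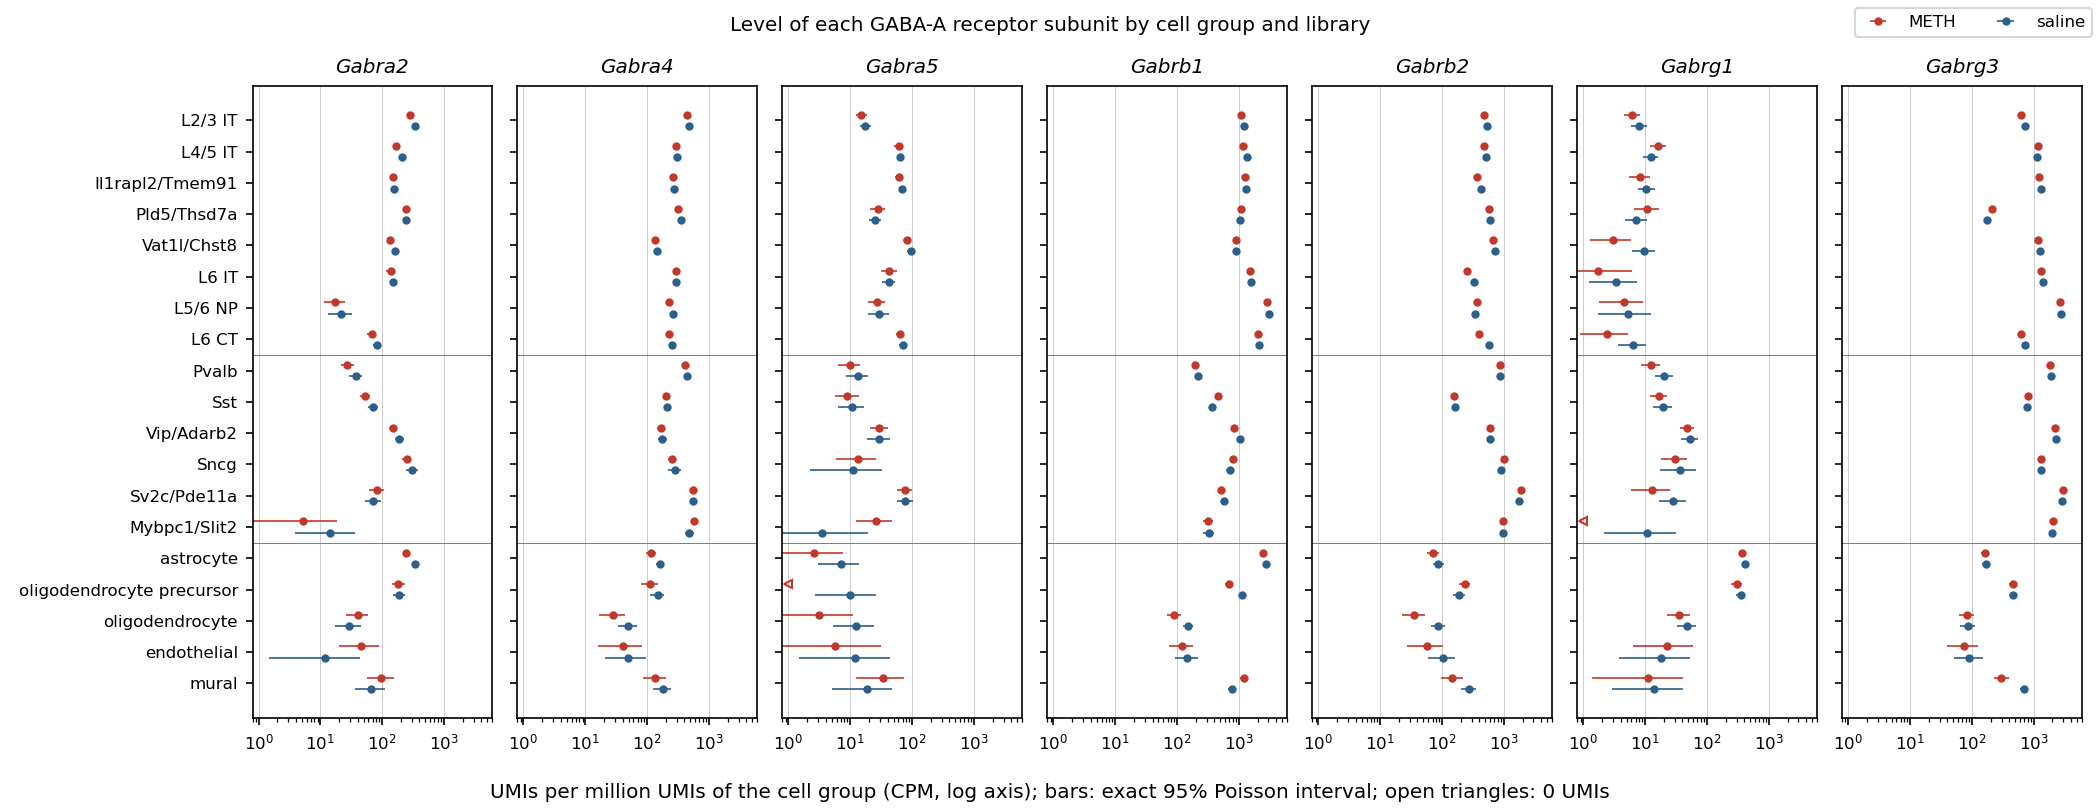
Level of each of the 7 subunits (CPM, log axis) in 19 cell groups; points are the METH and saline libraries and bars are exact 95% Poisson intervals, which cover counting error only. Gabrb1 is high in astrocytes (2481 and 2762 CPM) and low in Pvalb interneurons (193 and 220), while Gabrg1 is highest in astrocytes and next in oligodendrocyte precursors.

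Among the beta subunits, Gabrb1 had a wide range over cell groups, with layer 5/6 near-projecting neurons and astrocytes at the top. Layer 5/6 near-projecting neurons had 2792 (2710 to 2876) CPM in METH and 3033 (2923 to 3147) in saline, and astrocytes 2481 (2392 to 2573) and 2762 (2667 to 2860.3). Layer 6 corticothalamic neurons came next at 2016 and 2141. The lowest neuronal group, Pvalb interneurons, had 193 and 220 CPM. In the Gabrb1 order, 6 of the 18 neighbouring pairs had separate intervals in both libraries.

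Gabrb2, a subunit of common synaptic receptors, was highest in interneurons. Sv2c/Pde11a interneurons had 1853 (1753 to 1958) CPM in METH and 1722 (1619 to 1831) in saline. Sncg interneurons had 993 and 912, Mybpc1/Slit2 interneurons 978 and 982, and Pvalb interneurons 851 and 848. Sst interneurons, which target dendrites, stood apart from the other interneuron groups with 158 (143 to 175) and 161 (142 to 181) CPM of Gabrb2. Astrocytes had 72.0 and 87.1.

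The share of Gabrb1 in the UMIs of all beta subunits differed between cell groups. It took 97.0% (96.4 to 97.6) of the beta UMIs of METH astrocytes and 96.9% (96.3 to 97.5) in saline. In Pvalb interneurons its share was 18.5% (17.1 to 19.99) and 20.6% (18.8 to 22.4). It was 73.9% and 69.7% in Sst interneurons, against 24.7% in both libraries for Mybpc1/Slit2 and 21.5% and 25.2% for Sv2c/Pde11a interneurons. These shares compare cell groups and do not say which gene has more transcripts, since UMI yield differs between genes. Over the 19 cell groups the levels of Gabrb1 and Gabrb2, which share the promoter runs shown above, had a Pearson's r of 0.169 (log2 of CPM plus 1).

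**Figure D2:**
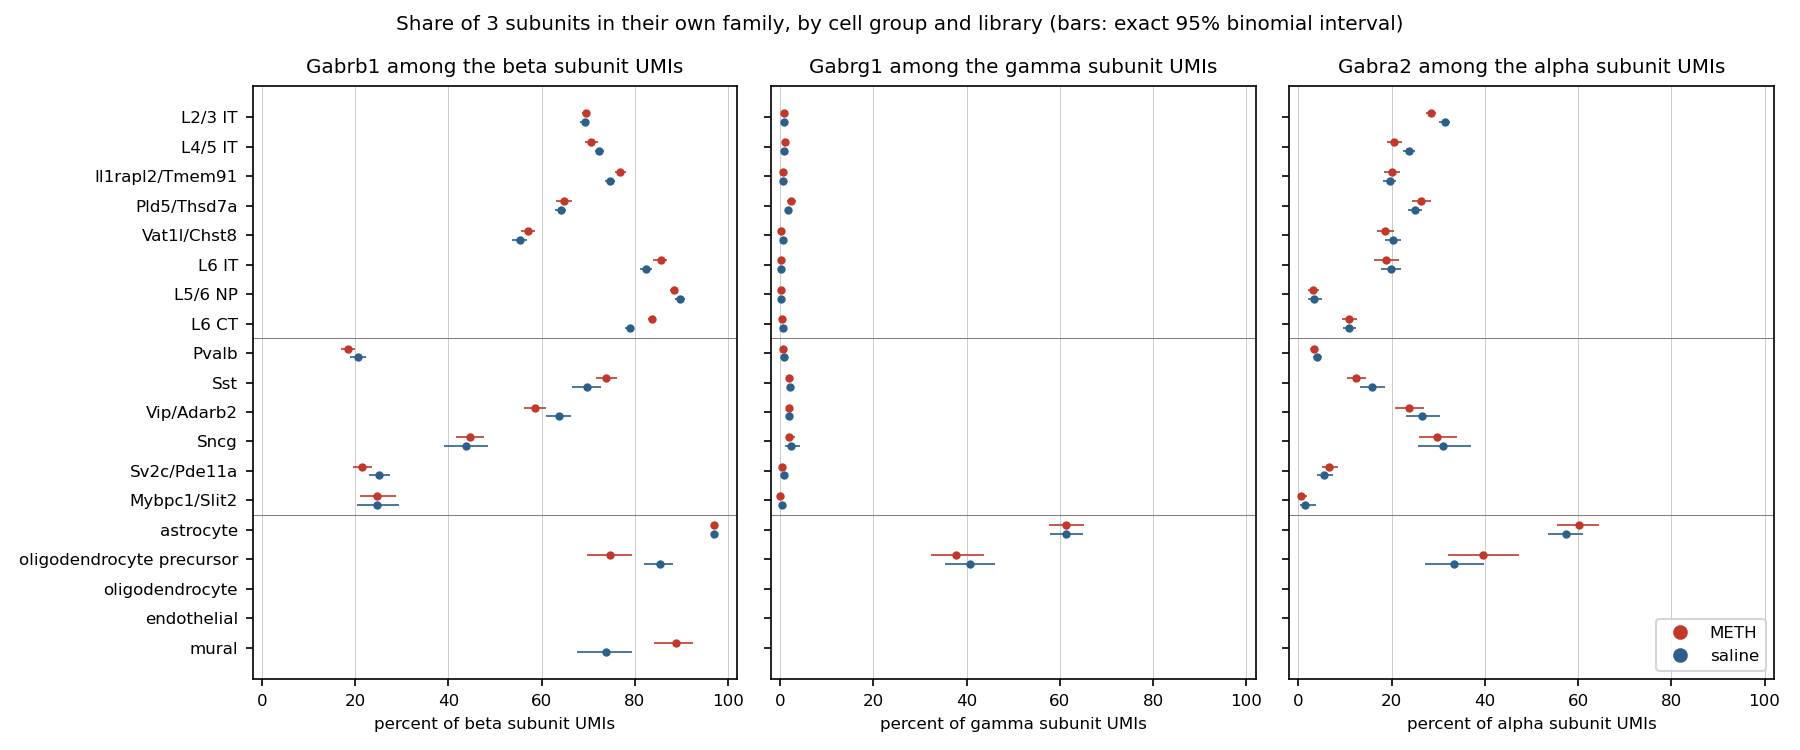
Percent of a family's UMIs taken by 3 subunits in each cell group, by library, with exact 95% binomial intervals; groups with under 100 family UMIs in a library have no point. The share of Gabrb1 among beta subunits runs from 18.5% in METH Pvalb interneurons to 97.0% in METH astrocytes, and Gabrg1 takes 61.4% of the gamma UMIs of astrocytes in both libraries.

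Among the gamma subunits, Gabrg1, a minor subunit in most of the forebrain that glia carry, was a gene of astrocytes and oligodendrocyte precursors in these nuclei. Astrocytes had 362 (328 to 398) CPM in METH and 412 (376 to 451) in saline, and oligodendrocyte precursors 300.1 (247 to 361) and 350.2 (295 to 413). The highest neuronal group, Vip/Adarb2 interneurons, had 47.9 and 52.1, and all excitatory neurons together had 6.98 and 8.57. Gabrg1 took 61.4% of gamma UMIs in astrocytes of both libraries, 37.8% and 40.7% in oligodendrocyte precursors and 0.598% and 0.712% in excitatory neurons.

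Gabrg3 ranged widely among neurons. Sv2c/Pde11a interneurons had 2957 (2829.8 to 3088) CPM in METH and 2835 (2701 to 2973) in saline. Layer 5/6 near-projecting neurons had 2659.6 and 2747, Vip/Adarb2 interneurons 2159 and 2269, and Mybpc1/Slit2 interneurons 2071 and 1947. Pld5/Thsd7a excitatory nuclei had 214 and 173 CPM, near the 162 and 171 of astrocytes, and Gabrg3 made up 45.6% and 38.2% of their gamma UMIs, against 94.3% and 93.7% in near-projecting neurons. A single nucleus held 19.5% of the Gabrg3 UMIs of the METH Pld5/Thsd7a group. Sst interneurons, at 798 and 775, were the lowest interneuron group for Gabrg3 as they were for Gabrb2.

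Free RNA in droplets can give UMIs to nuclei that do not express a gene, so shares of nuclei with a UMI were compared with endothelial nuclei, a class that should lack most of these subunits. Each nucleus was thinned to 1000 UMIs, which left out 52 of 142 METH and 71 of 151 saline endothelial nuclei and 3 and 15 astrocytes. After thinning, Gabrb1 was found in 83.9% (80.1 to 87.3) of METH and 89.3% (86.3 to 91.9) of saline astrocytes, against 10.0% and 8.75% of endothelial nuclei. Median UMIs before thinning were 2419.5 and 2011 in astrocytes and 1151 and 1033 in endothelial nuclei. Without thinning the shares of Gabrb1 were 96.2% and 96.0% in astrocytes and 13.4% and 13.9% in endothelial nuclei. Gabrg1 was found in 30.7% and 32.2% of thinned astrocytes (55.2% and 49.9% unthinned) against 2 of 90 METH and 1 of 80 saline endothelial nuclei. Gabrb2 was found in 8.04% and 8.10% of thinned astrocytes against 7.78% and 8.75% of endothelial nuclei, so its signal in astrocytes is at the background. The oligodendrocyte share of Gabrb1 after thinning, 5.47% and 10.3%, is likewise at or near the endothelial share.

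By a rule that named the 3 genes with the most similar levels over the 19 groups, Gabrg1 was most like Ppara (Pearson's r of 0.939 for log2 of CPM plus 1) and Gabra4 most like Ccdc65 (0.915, but 0.907 in METH and 0.654 in saline alone). Gabra2 was most like Cdh10 (0.878), Gabra5 like the opioid receptor gene Oprm1 (0.878) and Gabrg3 like Syngr1 (0.909), out of 9015 genes. Among the members, Gabra4 and Gabrb2 were most alike (0.822), followed by Gabrb2 and Gabrg3 (0.790), and Gabra5 and Gabrg1 were least alike (-0.65). The last value was -0.73 in METH and -0.46 in saline alone. It rests in part on few glial Gabra5 UMIs, such as 11 in astrocytes of both libraries together. These values describe 19 groups that share 2 libraries.

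The comparison of the METH with the saline library asked whether these subunits differ after repeated methamphetamine. Ratios are log2 METH over saline of CPM with exact 95% intervals for counting error. A gene counted as measured if the libraries together held 100 of its UMIs and it reached 20 CPM in one of them, and as past the size rule where the ratio and its nearest bound both passed 1.5-fold.

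In excitatory neurons 5 of the 6 measured members had a whole interval below 0, where 23.3% of 7142 genes did, and none lay above 0, where 17.7% did. Gabra2 was at 177 CPM (172 to 183) in METH and 208 (202 to 214) in saline, a log2 ratio of -0.23 (-0.29 to -0.17). Gabrb2 was at 465 and 523 (-0.17), Gabra5 at 43.9 and 49.5 (-0.17), Gabra4 at 303 and 322 (-0.09) and Gabrb1 at 1340.02 and 1374 (-0.04). Gabrg3, at 982 and 977 CPM, had a ratio of 0.01 (-0.02 to 0.03), and Gabrg1 was under the minimum level. No member passed the size rule, which 0.224% of genes passed lower and 0.112% higher in METH. The median over measured members was -0.13, against -0.01 over all genes. The class pools subgroups whose shares differed between the libraries, so a class ratio need not hold in each subgroup. Near-projecting nuclei were 236 of 2141 METH and 208 of 3486 saline excitatory nuclei, and Pld5/Thsd7a nuclei 194 and 534. By subgroup, the Gabrg3 ratio ran from -0.20 in layer 6 corticothalamic to 0.31 in Pld5/Thsd7a nuclei.

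The depth of the excitatory nuclei differed between the libraries, and the ratios moved with how depth was treated. In 1828 nuclei per library matched on UMIs, all 6 measured members lay below 0, against 17.5% of genes, with Gabra2 at -0.43. After thinning each nucleus to 1000 UMIs, 2 members lay below 0 (8.98% of genes) and 1 above (6.54%). Thinning keeps fewer UMIs, which widens the intervals, and the median of the members was -0.16. Thinned ratios were -0.26 for Gabra2, -0.23 for Gabra5, -0.22 for Gabrb2 and -0.09 for Gabra4. Gabrb1 and Gabrg3 were at 0.03 and 0.09. As UMIs per nucleus every gene moves up by the same 0.52, the log2 ratio of total UMIs per nucleus, so all 6 members were above 0, as were 98% of genes by their interval. The part of depth in these ratios was not tested beyond these settings. Markers of oligodendrocytes (9 genes, none at 0) summed to 136 CPM in METH and 173 in saline excitatory nuclei, those of microglia (9 genes, none at 0) to 29.6 and 41.9, and those of inhibitory neurons (6 genes, none at 0) to 46.8 and 44.8. The mitochondrial share of UMIs was 0.0918% and 0.133%, and it was lower in METH in all 21 classes and subgroups. Their part in these and the following ratios was not tested.

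Inhibitory neurons had all 7 members measured, and 3 lay below 0, against 12.7% of 7557 genes. Gabra2 was at 75.8 and 87.5 CPM (-0.21, -0.38 to -0.04), Gabrg1 at 21.0 and 26.4 (-0.33, -0.65 to -0.01) and Gabrg3 at 1633 and 1704 (-0.06, -0.10 to -0.02). Gabrb1 and Gabrb2 differed by less than counting error. With nuclei matched on UMIs 5 of 7 lay below 0, against 11.3% of genes. Oligodendrocyte markers (9 genes, none at 0) summed to 131 and 198 CPM in the inhibitory nuclei. The inhibitory Gabra2 ratio was 0.04 when clusters found almost only in the METH library were included.

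**Figure D3:**
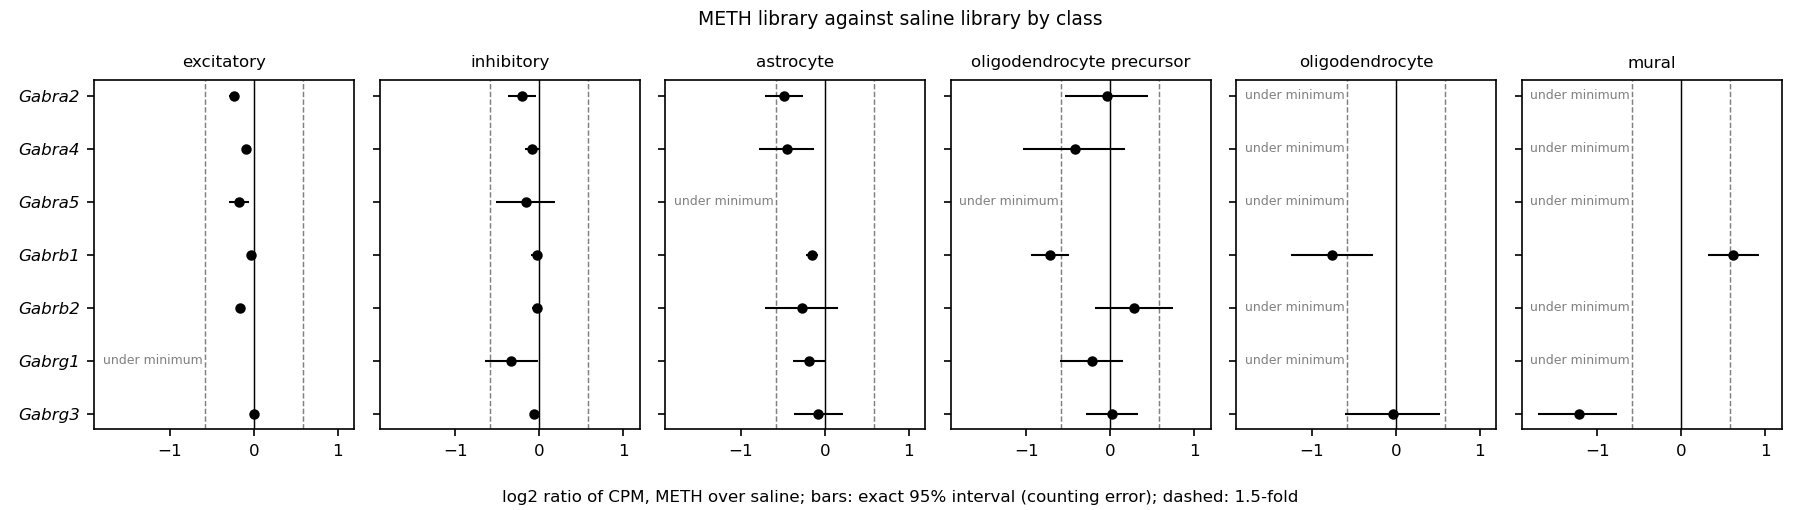
Log2 ratio of CPM, METH over saline, for each measured member in the cell classes, with exact 95% intervals for counting error and dashed lines at 1.5-fold. In excitatory neurons 5 of 6 members lie below 0 by small amounts. Farther out lie Gabrb1 in oligodendrocyte precursors (-0.72) and oligodendrocytes (-0.75), and Gabrg3 (-1.22) and Gabrb1 (0.62) in mural nuclei. In mural nuclei matched on UMIs, Gabrg3 was at 0.22 and Gabrb1 at -0.47.

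In layer 2/3 intratelencephalic neurons all 5 measured members lay below 0, against 15.2% of 7031 genes, from Gabra4 at -0.12 to Gabra2 at -0.27. After thinning to 1000 UMIs, which keeps fewer UMIs, all 5 ratios were below 0, as were those of 53.9% of genes. They ran from -0.06 for Gabra4 to -0.30 for Gabra2. Of the 5 intervals 1 lay wholly below 0, against 4.61% of genes. In nuclei matched on UMIs all 5 did, against 12.4%. Oligodendrocyte markers (9 genes, none at 0) summed to 137 and 166 CPM in the layer 2/3 nuclei. Layer 6 corticothalamic neurons, which project to the thalamus, had the lowest Gabrb2 ratio among the neuronal groups where it was measured. Gabrb2 there was at 390.4 CPM (366 to 416) in METH and 569.5 (540.2 to 600.0) in saline, a log2 ratio of -0.54 (-0.66 to -0.43). Of all genes in that group 3.05% had a lower ratio. In these neurons 3 of 6 measured members lay below 0, against 10.3% of genes, the others being Gabrg3 at -0.20 and Gabrb1 at -0.09.

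After thinning, Gabrb2 was found in 27.2% (22.2 to 32.6) of METH and 44.0% (39.3 to 48.8) of saline corticothalamic nuclei, with 1 nucleus left out in each library; unthinned shares were 86.3% and 89.0%. Gabrb2 took 16.2% (15.3 to 17.2) of the beta UMIs of METH and 21.0% (20.03 to 22.0) of saline nuclei. The Gabrb2 ratio was -0.67 after thinning and -0.69 in matched nuclei. As UMIs per nucleus, a scale that raised every gene there by 0.56, it was 0.01, against a median of 0.54 over all genes. Gabra3 (96.9 and 139 CPM, -0.53) lay below 0 in the same nuclei. Summed markers of inhibitory neurons (6 genes, none at 0) were at 97.7 CPM in METH and 47.6 in saline there, and markers of oligodendrocytes (9 genes, 1 of them at 0 in METH) at 109.9 and 189. Their part in the result was not tested.

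Layer 6 intratelencephalic neurons also had less Gabrb2, at 254 (226 to 284) and 329 (303 to 357) CPM (-0.38, -0.58 to -0.17), and 9.17% of genes there lay below 0. Gabrb2 was at -0.22 (-0.33 to -0.11) in Il1rapl2/Tmem91, -0.17 in layer 2/3, -0.08 in layer 4/5 and Vat1l/Chst8 and -0.04 in Pld5/Thsd7a nuclei, and at 0.09 (-0.11 to 0.29) in near-projecting neurons. Whether these groups differ was not tested.

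Among interneurons, Gabrb1 was at 832 (782 to 885) CPM in METH and 1036 (968 to 1108) in saline in the Vip/Adarb2 group (-0.32, -0.45 to -0.18), and its share of beta UMIs was 58.6% and 63.7%. In that group 2 of 6 measured members lay below 0, against 7.19% of genes. In Sst interneurons Gabrb1 was at 453 (427 to 481) and 372 (344 to 402), a log2 ratio of 0.28 (0.14 to 0.43), where 6.13% of genes lay above 0. Gabra2 in the same nuclei was at 52.8 (44.1 to 62.7) and 70.5 (58.4 to 84.4), a log2 ratio of -0.42 (-0.79 to -0.05), where 7.74% lay below. Oligodendrocyte markers (9 genes) summed to 163 and 208 CPM in Vip/Adarb2 and to 122 and 171 in Sst nuclei, with 1 of them at 0 in METH in both groups and 1 in saline Vip/Adarb2 nuclei. Gabrb1 in Sst nuclei was at 0.14 with at most 1% mitochondrial UMIs. Pvalb interneurons had Gabrb1 at -0.19 (-0.38 to 0.0043) and Gabrb2 at 0.01.

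**Figure D4:**
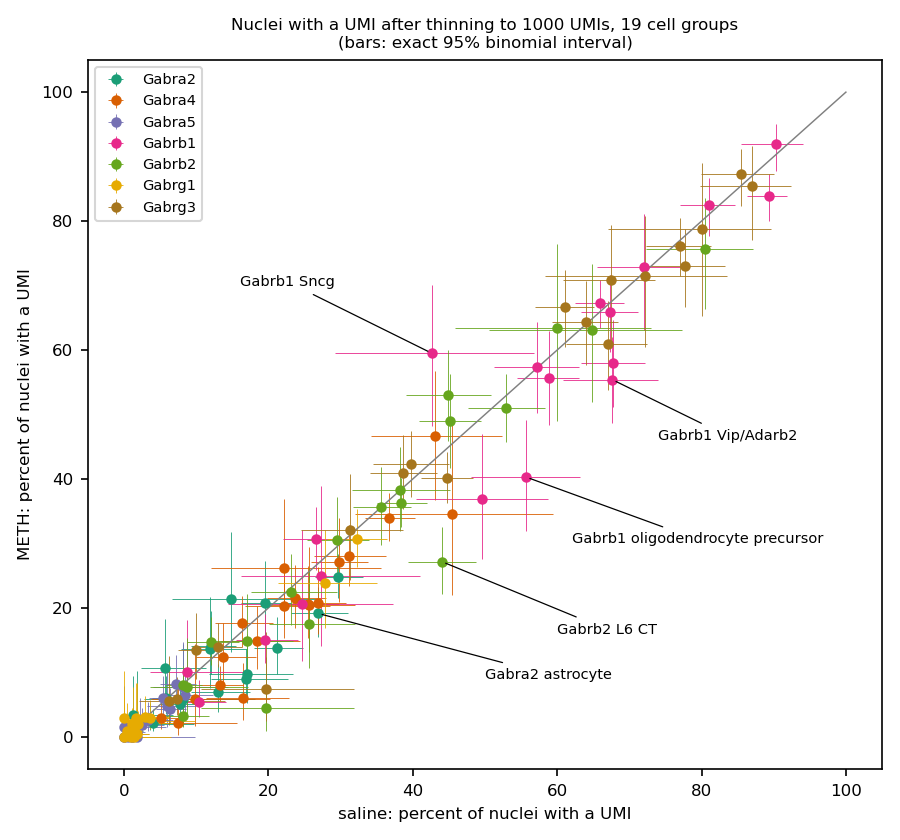
Percent of nuclei with at least 1 UMI of a subunit after thinning each nucleus to 1000 UMIs, METH against saline, for 19 cell groups, with exact 95% binomial intervals. Gabrb2 in layer 6 corticothalamic neurons (27.2% against 44.0%) and Gabrb1 in oligodendrocyte precursors (40.3% against 55.7%) lie below the line of equal shares.

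In astrocytes 3 of 6 measured members lay below 0, against 12.1% of 4663 genes. Gabra2 was at 244 and 341 CPM (-0.48, -0.71 to -0.26), Gabra4 at 116 and 159 (-0.45, -0.79 to -0.12) and Gabrb1 at 2481 and 2762 (-0.15, -0.23 to -0.08). Gabrg1 had a ratio of -0.19 (-0.38 to 0.0047). After thinning, Gabra2 was found in 19.1% (15.5 to 23.2) of METH and 26.9% (23.1 to 31.0) of saline astrocytes (unthinned 42.7% and 43.4%), against 3 of 90 METH and 1 of 80 saline endothelial nuclei. Gabra4 was found in 8.04% (5.63 to 11.1) and 13.2% (10.4 to 16.5) of thinned astrocytes (unthinned 24.6% and 24.8%) against 2 of 90 and 6 of 80 endothelial nuclei, whose intervals (0.270 to 7.80% and 2.80 to 15.6%) overlap those of astrocytes. Summed markers of excitatory neurons in these astrocytes were at 227 CPM in METH and 355 in saline (6 genes, none at 0), and those of oligodendrocytes at 189 and 369. Their part in the ratios was not tested.

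In oligodendrocyte precursors, cells known to receive GABAergic synapses, 1 of 6 measured members lay below 0, against 5.75% of 1721 genes. Gabrb1 was at 683 CPM (602 to 773) in METH precursors and at 1126 (1024 to 1234) in saline ones. Its log2 ratio was -0.72 (-0.95 to -0.50), and 0.872% of genes had a lower one. The METH value rests on 255 UMIs in 137 nuclei and the saline value on 450 UMIs in 184. After thinning Gabrb1 was found in 40.3% (31.9 to 49.1) and 55.7% (48.0 to 63.2) of nuclei, and without thinning in 67.2% and 74.5%; 3 and 8 nuclei were left out. Its share of beta UMIs was 74.8% (69.8 to 79.3) and 85.4% (82.1 to 88.3). Gabrb2 was at 230.5 and 190.1 CPM in the same nuclei (0.28, -0.18 to 0.74). The Gabrb1 ratio ran from -0.39 as UMIs per nucleus to -0.92 in matched nuclei. Markers of oligodendrocytes summed to 212 CPM in METH and 500.2 in saline precursors (9 genes, 1 at 0 in METH), and their part was not tested.

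In oligodendrocytes, Gabrb1 was at 89.3 and 151 CPM (-0.75, -1.248 to -0.27), 1 of 2 measured members, against 15.1% of genes, at a level that the endothelial comparison puts at the background. In mural nuclei, the contractile cells of vessels, Gabrg3 was at 298 and 696 CPM (-1.22, -1.70 to -0.76) and passed the size rule, as 1.64% of 671 genes did, while Gabrb1 was at 1199 and 779.8 (0.62, 0.32 to 0.92); 14.2% of genes lay below and 11.8% above 0. A single METH nucleus held 58.2% of the Gabrb1 UMIs of the METH mural nuclei, and without the highest nucleus of each library the ratio was -0.34. In matched mural nuclei Gabrg3 was at 0.22. Summed markers of inhibitory neurons in mural nuclei were at 304 and 929 CPM (6 genes, none at 0), and their part was not tested. No member was measured in endothelial nuclei.

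**Figure D5:**
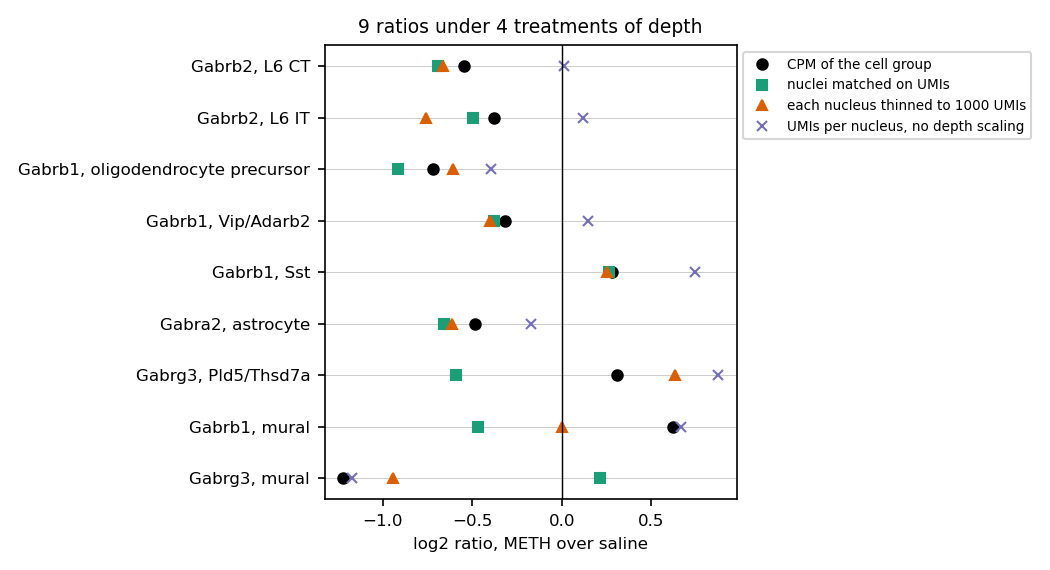
Log2 ratio, METH over saline, of 9 member and cell group pairs under 4 treatments of depth. Gabrb1 in oligodendrocyte precursors is below 0 in all 4 (-0.39 to -0.92), while Gabrb2 in layer 6 corticothalamic neurons is near 0 (0.01) as UMIs per nucleus, which raises every gene there by 0.56, and below -0.5 otherwise.

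Other genes of the GABA system were followed by list. Of the 12 other subunits, 4 were measured in excitatory neurons, with 3 below 0, against 23.3% of all genes. Gabra3 was at -0.15, and Gabrd, the subunit of receptors outside synapses, at -0.11 with an interval that held 0. In inhibitory neurons 2 of 4 measured lay below 0, against 12.7% of all genes. Of 18 receptor partner genes (scaffolds, trafficking factors and the metabotropic GABA-B subunits), 16 were measured in excitatory neurons, with 7 below 0 and 1 above (23.3% and 17.7% of all genes) and a median of -0.06. Gphn, the scaffold gephyrin, was at 447 and 509 CPM (-0.19) and Mdga1, an adhesion protein that limits neuroligin contacts, at 51.6 and 44.4 (0.22). In inhibitory neurons 5 of 16 partner genes lay below 0 and none above (12.7% and 9.01% of all genes).

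Of 8 genes for GABA supply and chloride balance, 3 were measured in excitatory neurons, with 1 below 0 and 2 above. There 23.3% and 17.7% of all genes lay below and above, and the median of the 3 was 0.12, against -0.01 over all genes. All 8 were measured in inhibitory neurons, with 4 below 0 and 1 above, where 12.7% and 9.01% of all genes lay. Slc32a1, the vesicular GABA transporter, had 36.0 and 67.3 CPM (-0.90) and passed the size rule, which 0.238% of genes passed lower in METH. Gad2, which makes GABA, was at 548 and 602 (-0.13) and Slc12a2, the chloride importer, at -0.26, while Slc12a5, the chloride exporter, was at 94.8 and 81.4 (0.22). Gad1 was at 0.05 with an interval that held 0. In astrocytes 4 of these genes were measured, with 1 below 0 and 1 above, where 12.1% and 5.83% of all genes lay. Their median was -0.19, against -0.07 over all genes. Slc6a11, the astrocytic GABA transporter, was at 223 and 169 CPM (0.40) in astrocytes.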

How the data were processed

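Nuclei of 1 METH and 1 saline library were used. The deposited matrices hold UMI counts per gene and barcode, and the submitters' processing notes name Cell Ranger 7.0.0. These notes name hg38, which the rat Ensembl identifiers do not match; the rat build, the annotation and the use of intronic reads were not stated in the sources used here.

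Nuclei with under 500 genes or over 5% mitochondrial UMIs and called doublets (328 METH, 419 saline, Scrublet in scanpy 1.11.5, expected rate 0.06) were removed. Both libraries were clustered jointly (2000 variable genes without the subunits, 30 components, Leiden resolution 1, 0.5 within neurons), and of 5159 METH and 6491 saline nuclei 4637 and 6187 got a class from marker genes. Unnamed clusters (522 and 304 nuclei), among them clusters almost only of METH nuclei, were left out. The libraries share 9 barcodes.

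UMIs were summed per cell group. Groups with 50 nuclei in each library were compared, with exact Poisson, conditional ratio and Clopper-Pearson 95% intervals. PCR duplicates are collapsed by UMIs, and intervals cover counting error only. Genes named for likeness were the 3 with the highest r per member; other genes come from written lists. Alternatives covered scaling (edgeR 4.0.16 TMM factors among them), depth, filters and clustering. The ratio and its interval were run on simulated Poisson counts, the setting that the interval assumes, without spread between nuclei or animals. This checks the calculation and cannot show how well the intervals fit these nuclei. The rule for the members uses their names alone, but the members and lists were chosen with earlier results of these data known. A few genes of the lists and of the likeness rule are not reported here.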

Additional observations from a re-analysis of the deposited data

Results flagged for a closer look

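Counting intervals of the METH over saline ratio lay on opposite sides of 0 for 2 members in different cell groups; with 1 library per group these differences between groups were not tested. Gabrb1 in mural nuclei was at 0.62, against -0.04 in excitatory neurons, -0.15 in astrocytes, -0.75 in oligodendrocytes and -0.72 in oligodendrocyte precursors. Most of the METH mural Gabrb1 UMIs lay in 1 nucleus, and the mural ratio was -0.47 in nuclei matched on UMIs. The oligodendrocyte level of Gabrb1 was at or near the endothelial background. Gabrb1 in Sst interneurons was at 0.28, against -0.15 in layer 2/3, -0.20 in layer 4/5, -0.12 in near-projecting and -0.09 in layer 6 corticothalamic neurons and -0.32 in Vip/Adarb2 interneurons. Gabrg3 in the Pld5/Thsd7a excitatory group was at 0.31, against -0.10 in the Il1rapl2/Tmem91 group, -0.18 in layer 2/3, -0.20 in layer 6 corticothalamic and -0.11 in Vat1l/Chst8 neurons and -0.09 in Pvalb interneurons. Of the Gabrg3 UMIs of the METH Pld5/Thsd7a nuclei, 19.5% lay in 1 nucleus, and the ratio was 0.05 without the highest nucleus of each library.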

How the results depend on the processing

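No paired analysis was possible because each group has 1 library. As UMIs per nucleus, which raises each ratio by the log2 ratio of total UMIs per nucleus, these turned positive. In excitatory neurons Gabra2 was at 0.29, Gabra4 0.43, Gabra5 0.35, Gabrb1 0.49 and Gabrb2 0.36; in inhibitory neurons Gabra2 was at 0.26, Gabrg1 0.14 and Gabrg3 0.41; in astrocytes Gabrb1 was at 0.16. In layer 2/3 neurons Gabra2 was at 0.22, Gabra4 0.38, Gabrb1 0.35, Gabrb2 0.32 and Gabrg3 0.32, and in layer 4/5 neurons Gabra2 was at 0.18 and Gabrb1 0.31. Gabrb1 was at 0.43 in near-projecting neurons, and Gabrb1, Gabrb2 and Gabrg3 at 0.47, 0.011 and 0.36 in corticothalamic neurons. Gabrb2 was at 0.12 in layer 6 intratelencephalic neurons, Gabrb2 and Gabrg3 at 0.49 and 0.61 in Il1rapl2/Tmem91, Gabra4 at 0.42 in Pld5/Thsd7a, and Gabra2 and Gabrg3 at 0.26 and 0.46 in Vat1l/Chst8 nuclei. Gabrg3 was at 0.38 in Pvalb, Gabra2 at 0.044 in Sst, and Gabra2 and Gabrb1 at 0.12 and 0.15 in Vip/Adarb2 interneurons.

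Thinning to 1000 UMIs turned Gabrb1 in excitatory neurons to 0.028 and Gabrb2 in Il1rapl2/Tmem91 nuclei to 0.056. Matching on UMIs turned mural Gabrb1 to -0.47, mural Gabrg3 to 0.22 and Pld5/Thsd7a Gabrg3 to -0.59. Without the highest nucleus mural Gabrb1 was at -0.34, and with at least 1000 genes per nucleus Pld5/Thsd7a Gabrg3 was at -0.084. With METH-only clusters included inhibitory Gabra2 was at 0.044, and with subclasses weighted alike inhibitory Gabrg3 at 0.0024. At 500 UMIs the log2 ratio of the precursor share with a Gabra4 UMI was 0.43. The causes were not tested.

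Counts of members with an interval below 0 were, as UMIs per nucleus, 0 in excitatory, inhibitory, astrocyte and oligodendrocyte classes, with 6, 5, 1 and 2 above in excitatory, inhibitory, astrocyte and precursor nuclei; 98%, 88.2%, 32.9% and 38.5% of all genes were above there. Thinning keeps fewer UMIs, which widens the intervals. After thinning the counts were 2 below and 1 above in excitatory, 1 below in inhibitory, 3 below in precursor and 0 below in oligodendrocyte nuclei. The shares of all genes there were 8.98% below and 6.54% above, then 5.11%, 3.49% and 10% below. In matched nuclei the counts below 0 were 5 in inhibitory, 2 in precursor and 0 in oligodendrocyte nuclei, against 11.3%, 5.64% and 13.3% of all genes. The share of all genes was counted only for the main setting and these treatments of depth. Excitatory neurons had 1 above with totals without the 10 highest genes and with METH-only clusters. Precursors had 2 below with no doublet removal, 1000 genes or at most 1% mitochondrial UMIs, and oligodendrocytes 2 below with at least 30 UMIs or 1000 genes. Mural nuclei had 0 below and 0 above after thinning and matching, 0 above without the highest nucleus and 2 below with at least 30 UMIs. Of all genes in mural nuclei 10.7% lay below and 6.11% above after thinning, and 7.16% and 4.93% in matched nuclei. Members lower past the size rule were 1 in oligodendrocytes at 1000 genes, 1 in precursors in matched nuclei or under the lower size threshold, and 0 in mural nuclei after thinning, matching, no doublet removal or at 2-fold. With 1000 genes no endothelial or mural class was found, so those values were not run. Other scalings shifted the median of all genes by over 0.1 only in oligodendrocytes (TMM factors 0.20, median of ratios 0.12). Low UMI totals in precursors and mural nuclei limit precision.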

Other observations

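Subunit UMIs were also counted in clusters and classes outside the comparisons. A GABAergic cluster with Meis1 and Pbx3 among its leading genes had 145 METH nuclei and 1 saline nucleus, so it is described for METH alone. Gabra5 there was at 111 CPM (85.2 to 141), higher than in each of the 19 compared groups of the METH library, though the interval overlapped that of Vat1l/Chst8 nuclei (72.4 to 94.8). Gabra2 was at 304 (261 to 353) and Gabrg3 at 1283 (1192 to 1379). A cluster with Bnc2 and Cdh19 among its leading genes had 33 METH and 3 saline nuclei; its METH nuclei had Gabrb2 at 794 CPM (597 to 1036) from 54 UMIs, while Gabrb1 was at 103 from 7 UMIs.

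Committed oligodendrocyte precursors, 46 METH and 38 saline nuclei, had Gabrb1 at 871 and 968 CPM and Gabrg1 at 236 and 222. Gabrg3 was at 177 and 228 CPM and Gabrb2 at 44.3 and 108 in these nuclei. Oligodendrocyte precursors had more of both, with Gabrg3 at 464 and 458 CPM and Gabrb2 at 230 and 190. Mature oligodendrocytes had Gabrb1 at 89.3 and 151 CPM and Gabrg1 at 35.4 and 47.2. In microglia Gabrb1 was at 165 and 177 CPM from 10 and 19 UMIs, against 120.2 and 145 in endothelial nuclei.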
